A study of Drosophila melanogaster with 2 samples.

Results

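The cytosolic ribosomal protein genes of Drosophila melanogaster were examined for binding of the zinc finger protein ATbp, whose name refers to A+T-rich DNA. They were taken as the protein-coding genes of the Ensembl BDGP6 annotation named RpL or RpS followed by a digit, together with RpLP0, RpLP1, RpLP2 and sta, which gave 92 of 13986 protein-coding genes. Of these, 53 encode proteins named for the large subunit and 39 for the small subunit, with sta counted as small. The names take in germline and testis paralogs such as RpL22-like, and every one of the 92 was kept.

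Chromatin immunoprecipitation with sequencing was performed on whole embryos, with males and females pooled, collected between 0 and 14 h of development. The embryos came from a transgenic line that stably expresses ATbp fused at its C-terminus to green fluorescent protein (GFP), and the tagged protein was pulled down with an antibody to GFP. Chromatin was sonicated to 200 to 800 bp, and 2 biological replicates formed the only group. The labels do not name the promoter that drives the fusion, there was no untagged or untreated group, and no control library was analysed here. In whole embryos, occupancy in fewer cells and weaker occupancy in each cell cannot be told apart. Every position below is a peak summit, the base that the deposited list gives as the point of strongest enrichment, on genome build dm6.

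Ribosomal protein genes are transcribed at high rates in growing cells, and their products are needed in matched amounts. Heterozygous loss of many of them gives the Minute phenotype of slow development and short bristles. In Drosophila their promoters often start at a pyrimidine-rich TCT initiator in place of the usual initiator, and are known to use the TBP-related factor Trf2, the zinc finger protein M1BP, which binds a sequence called Motif 1, and Dref, which binds the DNA replication-related element (DRE).

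ATbp summits lay at the promoters of most ribosomal protein genes. A promoter summit was counted when it fell within 500 bp of any annotated transcription start site (TSS) of the gene. In the list of peaks thresholded by the irreproducible discovery rate (IDR) over both replicates, 62 of the 92 genes had one, which is 67.4% (Wilson 95% interval 57.3 to 76.1), where 14.9% of all protein-coding genes had one. Among the 5921 strongest summits of each replicate taken alone, the length of the IDR list, the counts were 61 genes in replicate 1 (66.3%, against 15.4% of all protein-coding genes) and 65 in replicate 2 (70.7%, against 14.9%). In the relaxed lists, which hold 30000 peaks each and reach down to weak signal, the counts were 79 in replicate 1 (85.9%, against 40.5%) and 74 in replicate 2 (80.4%, against 33.6%). The relaxed list called on the pooled reads held 71 (77.2%, against 35.3%). In each of the 6 lists the share of ribosomal protein genes exceeded the share of all protein-coding genes.

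The share was also above that of other genes with a like number of start sites. Of the ribosomal protein genes with 1 annotated TSS, 26 of 47 (55.3%) had an IDR summit, where 9.68% of other protein-coding genes with 1 TSS did. With 2 or more TSSs the count was 36 of 45, where 28.0% of such other genes had one.

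The summits sat close to the start of transcription, mostly just before it. In the 62 genes the median position was -16.5 bp from the nearest annotated TSS of the gene, negative values being upstream, with an interquartile range from -32.8 to -3.25 bp. In the 2016 other protein-coding genes with an IDR promoter summit the median was -145.0 bp. The interquartile range of the absolute distance was 8.0 to 33.8 bp in the first set and 99.0 to 281.0 bp in the second. The summit was within 50 bp of the TSS in 53 of 62 ribosomal protein genes (85.5%) and in 10.6% of the others. It was within 100 bp in 59 (95.2%) and in 25.7% of the others. The stretch from the TSS to 50 bp before it held 44 of the 62 summits (71.0%) and 5.65% of the others. Distance was also measured from the canonical TSS alone, since a gene with many start sites has more chances of one nearby. The median absolute distance was then 31.5 bp for the 62 genes. It was 168 bp for the 1663 others that had an IDR summit within 500 bp of the canonical TSS.

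**Figure D1:**
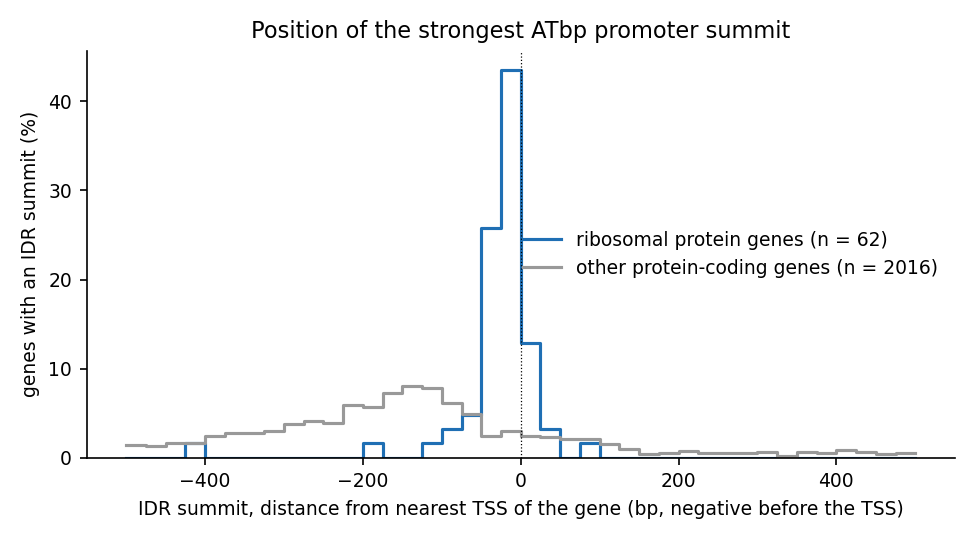
Share of IDR promoter summits in bins of distance (bp) from the nearest TSS of the gene, for the 62 ribosomal protein genes and 2016 other protein-coding genes. Ribosomal protein summits pile up between -50 bp and the TSS, whereas those of other genes spread widely upstream.

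The exceptions in position were few. The strongest summit of RpS23, a protein of the decoding centre, lay at -423 bp, and a second IDR summit of the same gene lay near its TSS. The summit counted for RpS20 lay at -195 bp and was nearer to a start site of CG17271, which made RpS20 the only 1 of the 62 whose summit was nearest to another gene. In 61 of 62 (98.4%) the summit was nearest to the ribosomal protein gene itself, against 77.3% of other genes. A start site of a different gene nevertheless lay within 500 bp of the summit in 33 of the 62, so that summits were shared by pairs such as RpL13 and Dref, RpL28 and eIF1, RpL14 and Nelf-E, RpS27 and Nup37, or RpL7 and Ripalpha.

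The strongest ribosomal protein summits belonged to both subunits. The sequence from 70 bp before to 20 bp from the TSS is shown for 4 of the leading promoters, and 30 bases around the TSS for 2 more whose windows overlap other exons, so that the letters around these start sites can be read. The summits of RpL7 and RpL23A lie outside the stretches printed. Each is on the strand of the gene, on build dm6 (Release 6 of the reference genome), with the TSS nearest the summit as the anchor. Capitals mark a TCT initiator, taken here as CCTTTC or CCTTTT, and equally as TCTTTC or TCTTTT, with the C before TTT within 5 bp of the TSS, or a Motif 1 core, GGTCACAC or its reverse complement.
RpL7 (chr2L:10200984-10201013, plus strand): cggccaGTGTGACCgtttggccgatggcgc
RpS27 (chr3R:25247495-25247584, minus strand): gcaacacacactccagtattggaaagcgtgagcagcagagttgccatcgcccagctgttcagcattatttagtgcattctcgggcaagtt
RpL14 (chr3L:8600936-8601025, plus strand): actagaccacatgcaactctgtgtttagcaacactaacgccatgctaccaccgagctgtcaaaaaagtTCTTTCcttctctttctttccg
RpS4 (chr3L:13041781-13041810, plus strand): ggccacaccgcccgcaaatctgCCTTTTcc
RpL13A (chr3R:5624404-5624493, plus strand): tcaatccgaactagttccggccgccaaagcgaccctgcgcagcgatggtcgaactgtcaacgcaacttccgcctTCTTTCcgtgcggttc
RpL23A (chr3L:1668635-1668724, minus strand): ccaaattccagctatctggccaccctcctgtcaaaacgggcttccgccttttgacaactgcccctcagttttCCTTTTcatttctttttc

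RpL7, a large subunit protein, had the highest rank of the 62, with its summit at 10201036 on 2L, 32 bp after the TSS. Its deposited signal value, the peak score of the authors, was 1214.7 in the IDR list, 577.0 in replicate 1 and 655.8 in replicate 2, and its rank was 131, 161 and 94. RpS27 followed with its summit at 25247506 on 3R, 8 bp after the TSS, a signal of 1068.1, and rank 172 in the IDR list, 214 in replicate 1 and 145 in replicate 2. Both genes thus stood near the top of every list. The A+T content of the summit base and 50 bp to either side was 40.6% in RpL7 and 51.5% in RpS27.

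RpL14 had its summit at 8600989 on 3L, 17 bp before the TSS, with a signal of 794.0, ranks of 339, 368 and 345 in the IDR list, replicate 1 and replicate 2, and an A+T content of 54.5%. RpS4, at 13041790 on 3L and 11 bp before its TSS, had a signal of 769.5, ranks of 365, 419 and 348, and an A+T content of 45.5%. In both, the summit lay upstream of the capitalised TCT word. RpL13A, at 5624441 on 3R and 33 bp before its TSS, had a signal of 709.2, ranks of 420, 377 and 491, and 43.6% A+T. RpL23A, at 1668727 on 3L and 73 bp before its TSS, had a signal of 696.1, ranks of 436, 663 and 309, and 43.6% A+T. These 4 genes, 3 of the large and 1 of the small subunit, kept high ranks in every list, with 663 for RpL23A in replicate 1 the weakest.

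RpL34b, at 9401326 on 3R and 100 bp before its TSS, had a signal of 672.6 and ranks of 464, 556 and 384. RpS10b, at 19598036 on X and 4 bp before its TSS, had 667.1 and ranks of 471, 517 and 474. RpL24, at 13395132 on 2L and 1 bp before its TSS, had 659.1 and ranks of 479, 706 and 388. Their A+T contents were 63.4%, 48.5% and 54.5% in the same order.

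At the weak end of the IDR list stood RpS9, RpS29 and RpS14b, all of the small subunit. RpS9, at 9511449 on 3L, lay 82 bp after its TSS with a signal of 140.6 and ranks of 5318, 5121 and 5220. RpS29, at 9778034 on 3R, lay 8 bp before its TSS with a signal of 140.7 and ranks of 5312, 4881 and 4777. RpS14b, at 7934861 on X, lay 37 bp before its TSS with a signal of 149.2 and rank 4962 in the IDR list, ranked 9674 in replicate 1 and had no summit in the replicate 2 list. A+T content was 66.3% in RpS9, 49.5% in RpS29 and 51.5% in RpS14b.

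Across the 62 genes the median rank in the IDR list was 1321.5, where the strongest peak has rank 1, and it was 2387.5 in the other protein-coding genes with a promoter summit. The first 25% of the list held 32 of the 62 (51.6%) and 34.9% of the others, and the last 25% held 4 (6.45%) and 19.7% of the others. At the very top the ribosomal protein genes were absent: their signal ended at 1214.7, while that of the other genes reached 3766.8. Where no start site of another gene lay within 500 bp of the summit, the median rank was 1900 for 29 ribosomal protein genes and 2458 for 1063 others, a narrower gap.

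The replicates ordered the genes alike. Of the 62, 61 had a promoter summit in both relaxed lists, with RpS14b the exception. Across those 61 genes the Spearman correlation of their ranks was 0.87, and it was 0.77 across 1890 other genes with an IDR summit and a summit in both lists. These are descriptions across genes, which are not independent, and the IDR list was itself made from the same replicates. The median rank was 1588 in replicate 1 and 1218 in replicate 2 for the ribosomal protein genes, and 2484.5 and 2064.5 for the others. The strongest summits of the replicates lay a median of 18 bp apart in the ribosomal protein genes and 21 bp in the others.

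**Figure D2:**
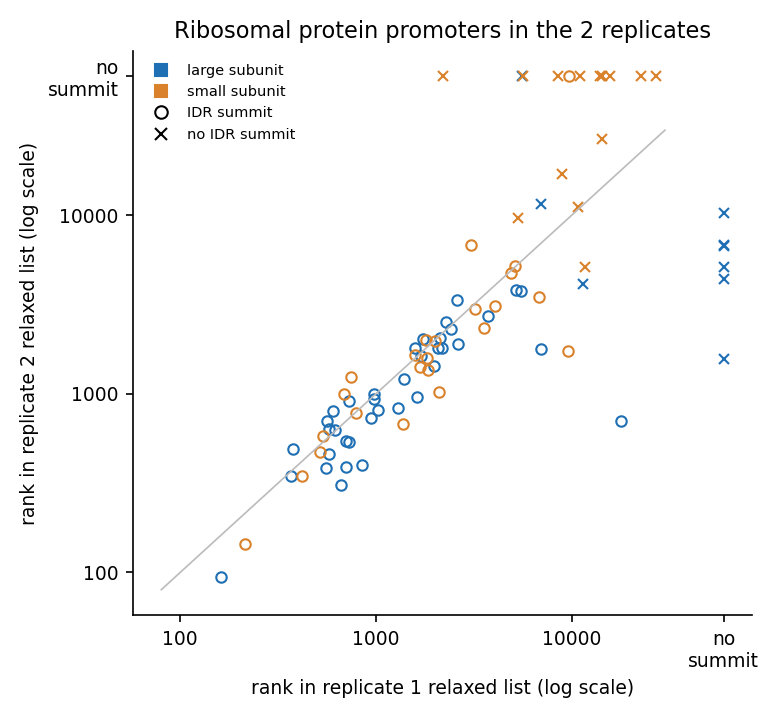
Rank of the strongest promoter summit of each ribosomal protein gene in the replicate 1 and replicate 2 relaxed lists, on log axes, where rank 1 is the strongest. Most genes with an IDR summit lie near the diagonal, and RpL28 stands far off it.

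By the listed ranks, RpL28 was the clearest departure between replicates. Its strongest summit ranked 705 in replicate 2, at -65 bp, and the IDR summit stood at -59 bp with rank 701. In the list of replicate 1 its strongest summit ranked 17912 and lay at -286 bp. The signal there was 32.5, against 268.6 in replicate 2 and 549.7 in the IDR list, whose signal comes from the pooled list. Whether a row near the IDR summit is missing from the replicate 1 list is not known. RpL23 ranked 6984 in replicate 1 and 1793 in replicate 2, and RpS20 ranked 9621 and 1729. RpS2 went the other way, with rank 3056 in replicate 1 and 6820 in replicate 2.

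The DNA beneath the ribosomal protein summits was poorer in A+T than that beneath the other summits. Within 50 bp to either side of the summit, A+T content was 53.3% ± 7.22 (SD, n = 62 genes), against 65.4% ± 9.98 (SD, n = 2016) in the other protein-coding genes and 64.7% ± 9.26 (SD, n = 5921) over all IDR summits. It was below 50% in 21 of the 62 (33.9%) and in 8.38% of the others. Only RpL34a with 73.3%, RpS20 with 70.3% and RpS9 with 66.3% exceeded the mean over all IDR summits, whereas 56.2% of the other genes did. RpL7 and 1 other gene shared the lowest content, 40.6%. The peak itself was listed with a median width of 253.5 bp in the ribosomal protein genes and 404 bp in the others. A width of 404 bp recurred in the list and was the upper quartile in both sets. Whether the widths differ at like rank was not tested.

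Base composition varied with position along promoters, so both were held together. With summits within 50 bp of the TSS alone, A+T content was 51.9% ± 5.79 (SD, n = 53) in the ribosomal protein genes and 57.7% ± 9.4 (SD, n = 214) in the others, so the difference in means was smaller at a like position. In the same span around the canonical TSS of genes with an IDR summit it was 52.7% ± 5.58 (SD, n = 62) and 54.2% ± 8.31 (SD, n = 2016), a difference smaller than either SD. At the canonical TSS of genes with no IDR summit it was 58.0% ± 6.48 (SD, n = 30) in ribosomal protein genes and 57.2% ± 8.57 (SD, n = 11860) in others. The ribosomal protein genes without a summit thus had more A+T at their start than those with one.

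Relative to its own surroundings, the summit of a ribosomal protein gene was a low point of A+T. The mean at 200 bp to either side was 61.0%, so the summit lay below its flanks by a mean difference of -7.74 ± 8.13 percentage points (SD, n = 62). In the other genes the flanks had 58.1% and the summit lay above them by 7.3 ± 12 percentage points (SD, n = 2016). Along the promoter, in windows of 41 bp, the A+T content of the 62 genes averaged 70.8% at 160 bp before the TSS, fell to 49.4% at 20 bp before it and returned to 63.1% at 60 bp after it. The same windows gave 65.9% and 53.4% at the first 2 positions in the other genes with a summit. In the 30 ribosomal protein genes without one they gave 68.4% and 54.2%. Genes with a summit were aligned on the TSS nearest the summit and those without on the canonical TSS, so the alignments differ.

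**Figure D3:**
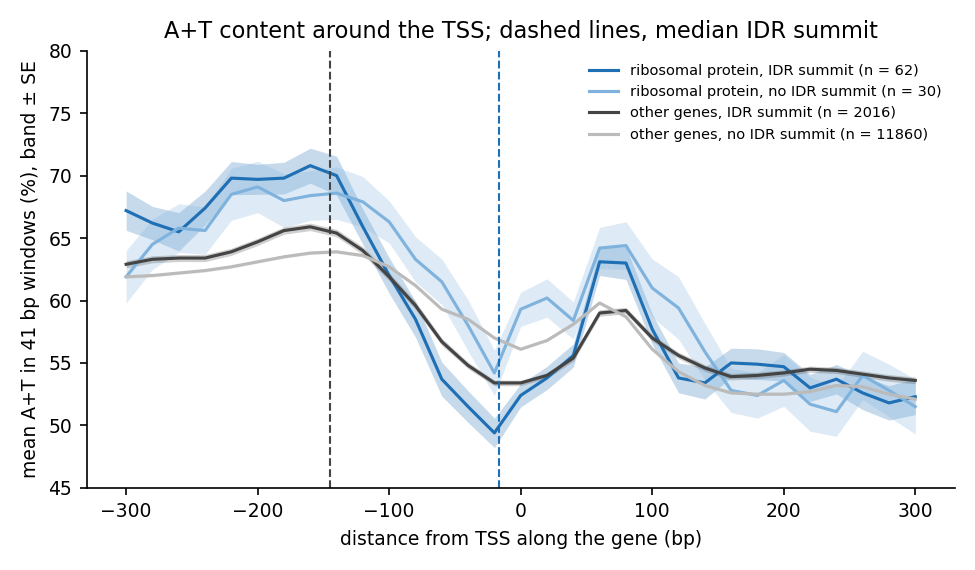
Mean A+T content (%) in 41 bp windows by distance (bp) from the TSS. Shown are ribosomal protein genes and other protein-coding genes with and without an IDR promoter summit. Genes with a summit are aligned on the TSS nearest the summit, and those without on the canonical TSS. The 62 ribosomal protein genes with a summit show the deepest trough, 49.4% at 20 bp before the TSS, after 70.8% at 160 bp before it.

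**Figure D4:**
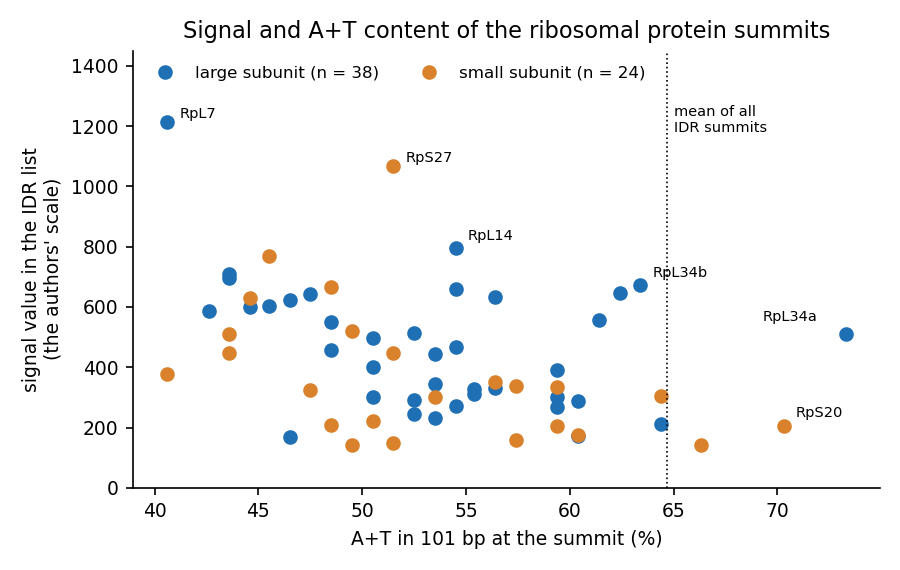
Deposited signal of each IDR summit of the 62 ribosomal protein genes against the A+T content (%) within 50 bp of it, coloured by subunit, with the mean over all 5921 IDR summits as a line. Only 3 genes lie to the right of the line, and the strongest summit, RpL7, shares the lowest A+T content, 40.6%, with 1 weaker summit.

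Large subunit genes and small subunit genes were set side by side without a test. An IDR summit was present in 38 of 53 large subunit genes (71.7%, Wilson 95% interval 58.4 to 82.0) and in 24 of 39 small subunit genes (61.5%, 45.9 to 75.1), intervals that overlap. The median rank was 957 for the large and 1721 for the small subunit genes, and the median signal 463.5 and 328.9. Mean A+T content was 53.5% ± 7.0 (SD, n = 38) and 53.0% ± 7.69 (SD, n = 24), and the median position -22.0 and -7.5 bp. The ranks of the subunits overlapped widely, since RpS27 and RpS4 were among the first 4 genes and RpL37-1 ranked 4277.

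The relaxed lists of the replicates differed by subunit. In replicate 1, 41 of 53 large subunit genes (77.4%, Wilson 95% interval 64.5 to 86.5) and 38 of 39 small subunit genes (97.4%, 86.8 to 99.5) had a promoter summit. In replicate 2 the order was the opposite, with 46 of 53 (86.8%, 75.2 to 93.5) and 28 of 39 (71.8%, 56.2 to 83.5). Whether this exceeds the variation between libraries was not tested, since each replicate is a single library. The counts also depend on which rows the lists hold, and whether any row is missing from them is not known.

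The 30 genes without an IDR summit fell into 5 groups. Of these genes, 7 had a summit in both relaxed lists, among them RpL10Ab, RpL40, RpS10a, RpS3, RpS30 and RpS6. The 3 that came closest to the IDR list by their rank in the pooled list were RpL10Ab at 6230, RpS3 at 6633 and RpS6, the substrate of S6 kinase, at 7285, beside 5318 for RpS9 as the last inside it. RpS6 ranked 11650 in replicate 1 and 5114 in replicate 2, with summits 40 and 39 bp after its TSS. RpS3 ranked 5295 and 9651, and RpL10Ab 11409 and 4123. RpL40, RpS10a and RpS30 had pooled ranks of 8560, 10335 and 17062.

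A summit in replicate 1 alone was found for 10 genes, of which 9 encode small subunit proteins. Among them were RpL7-like, RpS13, RpS14a, RpS15Ab, RpS24, RpS26, RpS27A, RpS28-like and RpS28a. The strongest was RpS27A, a ubiquitin fusion, with rank 2208 and a summit at -45 bp, followed by RpL7-like at 5571 and RpS14a at 5618. The others ranked between 8492 in RpS24 and 27119 in RpS15Ab. Of these 10, RpS13 alone was also in the pooled list, at rank 28059. Of all protein-coding genes, 40.5% had a promoter summit in the replicate 1 relaxed list. The share of all genes with one in replicate 1 alone is not given here.

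A summit in replicate 2 alone was found for 6 genes, and all 6 encode large subunit proteins, namely RpL5, RpL9, RpL10, RpL15, RpL21 and RpL38. Of all protein-coding genes, 33.6% had a promoter summit in the replicate 2 relaxed list. The share of all genes with one in replicate 2 alone is not given here. RpL9 ranked 1571, with its summit 1 bp before the TSS, yet none was listed for it in replicate 1 or in the pooled list, just as RpS27A was listed in replicate 1 alone. Whether any row is missing from the lists as used here is not known, so a gene without a listed summit is not shown to lack one. The ranks of the rest were 4385 in RpL10, 5148 in RpL38, 6753 in RpL5, 6860 in RpL15 and 10297 in RpL21. Their summits lay between -42 and 91 bp from the TSS, and all but that of RpL21 were within 50 bp of it. For some the closest IDR summit of any kind was distant, at 2914427 bp for RpL15, 1536411 bp for RpL38 and 388092 bp for RpL5.

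Several of these genes lie near centromeres, which was looked at after the values had been seen. Within 6 Mb of the centromeric end of the major autosome arms lay 9 ribosomal protein genes, RpL5, RpL10, RpL13A, RpL15, RpL21, RpL30, RpL35A, RpL38 and RpS26. An IDR summit was present in 3 of them, a replicate 1 summit in 4 and a replicate 2 summit in 8. Of 969 other protein-coding genes in those stretches, 11.6% had an IDR summit, 32.5% a replicate 1 summit and 31.4% a replicate 2 summit, so in those genes the replicates gave like shares.

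RpL6 had a summit in the pooled list alone, 5 bp after its TSS with rank 16384. No promoter summit in any list was found for RpL10Aa, RpL22-like, RpL24-like, RpL26, RpL37-2 and RpS19b. Of these 6, RpL26 is the one with no paralog among the 92. The windows of 3 of the 30 are shown to set beside those of the leading genes. RpS6 and RpS3 have a TCT word at the start site and RpL26 has none there. The listed summits of RpS6 lie outside the stretch printed, as do those of RpS3 in replicate 1 and the pooled list. Capitals here also mark the DRE, TATCGATA.
RpS6 (chrX:7901312-7901401, minus strand): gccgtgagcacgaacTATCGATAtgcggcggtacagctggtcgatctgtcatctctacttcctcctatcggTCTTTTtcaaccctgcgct
RpS3 (chr3R:23358742-23358831, plus strand): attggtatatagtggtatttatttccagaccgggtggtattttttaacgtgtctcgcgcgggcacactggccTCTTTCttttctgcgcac
RpL26 (chr3L:18899034-18899123, plus strand): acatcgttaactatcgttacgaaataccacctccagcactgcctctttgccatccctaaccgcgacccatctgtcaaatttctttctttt

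Among paralogs, usually a single gene carried the summit. There were 12 families with 2 or more named genes, 25 genes in all, and 12 of the 25 (48.0%) had an IDR summit, against 50 of the 67 genes without a named paralog (74.6%). In 10 families exactly 1 gene had an IDR summit, in RpL34 both did, and in RpL10A neither did. RpL34a and RpL34b had signals of 511.7 and 672.6, ranks of 822 and 464, and summits 84 and 100 bp before the TSS.

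**Figure D5:**
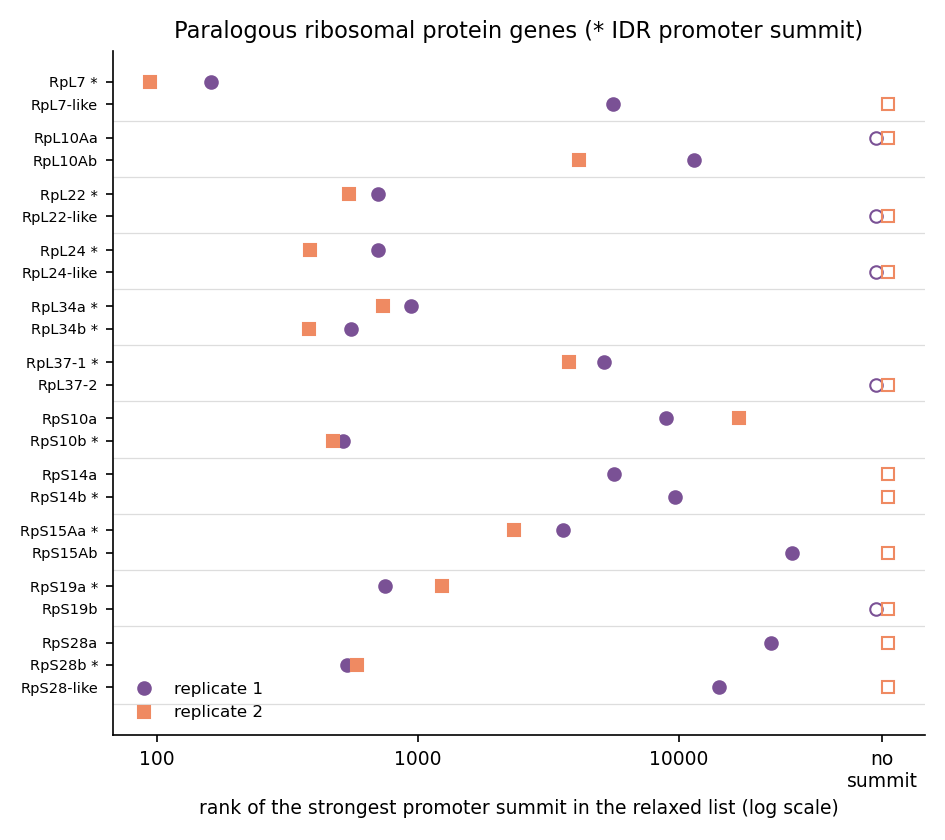
Rank of the strongest promoter summit of each gene of 11 of the 12 paralog families in the replicate 1 (circles) and replicate 2 (squares) relaxed lists, on a log axis, with open symbols at the right edge for no summit and an asterisk for genes with an IDR summit. In 9 of those shown exactly 1 gene has the asterisk, in RpL34 both do, and in RpL10A neither does.

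The second gene had no promoter summit in any list in the pairs RpS19a and RpS19b, RpL22 and RpL22-like, RpL24 and RpL24-like, and RpL37-1 and RpL37-2. RpS19a had its summit 3 bp before the TSS with a signal of 445.8 and ranks of 1021, 746 and 1242 in the IDR list, replicate 1 and replicate 2. RpL22 had its summit 34 bp before the TSS with a signal of 586.9 and ranks of 613, 707 and 544. RpL37-1 had its summit 4 bp before the TSS with a signal of 167.6 and ranks of 4277, 5169 and 3805. Their A+T contents at the summit were 51.5%, 42.6% and 46.5%. The genes without a summit in these pairs had 56.4% in RpS19b, 56.4% in RpL22-like, 51.5% in RpL24-like and 61.4% in RpL37-2 at the canonical TSS.

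In the pairs RpS10b and RpS10a, and RpS14b and RpS14a, the second gene had summits in the relaxed lists only. RpS10a had summits at -135 and -209 bp with ranks 8950 and 17011, far from its start site compared with the -4 bp of RpS10b. RpS14a and RpS14b are tandem copies on X, and replicate 1 placed RpS14a at rank 5618 and RpS14b at 9674, the reverse of the IDR list.

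RpL7-like had a replicate 1 summit at -328 bp, RpS15Ab at 195 bp, RpS28a at -158 bp and RpS28-like at 489 bp, with ranks of 5571, 27119, 22523 and 14286. Their partners in the IDR list were close to the TSS. RpS15Aa lay 32 bp after it with a signal of 220.7 and rank 2957, and RpS28b lay 31 bp before it with 629.2 and rank 532. In RpL10A, RpL10Ab had summits in the relaxed lists only, with rank 11409 in replicate 1 and 4123 in replicate 2, and RpL10Aa had none.

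Promoter sequence was compared within families, without pairs of unrelated genes beside them, so whether more is shared than between unrelated promoters was not tested. Over the 300 bp from 250 bp before to 50 bp after the canonical TSS, the longest run of identical bases was between 8 and 11 bp in every pair, with the 11 bp in RpS14a and RpS14b. The windows of 3 pairs are shown, 1 with a summit at both genes and 2 with a summit at a single gene in the IDR list. The summits of RpL34a and RpL34b lie outside the stretches printed.
RpL34a (chr3R:26059248-26059337, minus strand): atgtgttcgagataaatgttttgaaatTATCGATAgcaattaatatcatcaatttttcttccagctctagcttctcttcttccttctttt
RpL34b (chr3R:9401207-9401296, minus strand): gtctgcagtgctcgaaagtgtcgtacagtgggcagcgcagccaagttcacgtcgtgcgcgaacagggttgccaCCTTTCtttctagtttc
RpS14a (chrX:7933672-7933761, plus strand): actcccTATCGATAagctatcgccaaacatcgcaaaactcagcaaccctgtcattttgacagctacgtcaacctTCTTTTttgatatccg
RpS14b (chrX:7934828-7934917, plus strand): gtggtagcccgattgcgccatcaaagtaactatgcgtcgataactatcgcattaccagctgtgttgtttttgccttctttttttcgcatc
RpS19a (chrX:16637824-16637913, plus strand): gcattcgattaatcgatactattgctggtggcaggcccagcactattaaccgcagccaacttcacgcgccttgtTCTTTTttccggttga
RpS19b (chr3R:23933511-23933600, minus strand): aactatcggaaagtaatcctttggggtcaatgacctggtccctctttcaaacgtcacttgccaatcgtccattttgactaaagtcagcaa
A TCT word at the start site was present in RpS19a but not in RpS19b, and in RpS14a, which had no IDR summit, but not at the start site of RpS14b shown. The printed RpS14b stretch does hold TCTTTT, but its C lies just past the 5 bp limit from that TSS. The contrast between these copies thus rests on that limit. RpS14b has the word within the limit at its other annotated TSS.

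The TCT initiator was frequent in ribosomal protein genes both with and without an IDR summit. Most of those without one had a summit in a relaxed list. Among the 6 genes with no summit in any list, only RpL37-2 had the word at an annotated TSS. At any annotated TSS it was present in 39 of the 62 genes with an IDR summit (62.9%) and in 16 of the 30 without (53.3%), where 2.13% of all protein-coding genes have it. At the canonical TSS alone the shares were 40.3% and 43.3%, where 1.45% of all protein-coding promoters have it. Other genes with an IDR summit had it at their canonical TSS in 1.44%, close to that background. The usual initiator, TCAGTT or TCAGTC with its A within 5 bp of the TSS, was present in 1 of the 62 and none of the 30, against 8.66% of all promoters, and the TATA box TATAAA at 20 to 40 bp before the TSS likewise in 1 and none, against 7.9%. All 3 words were sought on the strand of the gene.

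The elements bound by Dref and M1BP were frequent at ribosomal protein promoters. They were sought on both strands from 250 bp before to 50 bp after the canonical TSS. The DRE, TATCGATA, was in 17 of the 62 promoters with a summit (27.4%), 11 of the 30 without (36.7%) and 8.94% of all protein-coding promoters. Its inner part ATCGAT, which every DRE contains, was in 40.3%, 43.3% and 22.7%. The Motif 1 core GGTCACAC was in 12 of the 62 (19.4%), 2 of the 30 (6.67%) and 7.52% of all promoters. For the DRE the share was thus no higher with a summit than without, and for Motif 1 the counts are too small to order the groups firmly.

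Of 4 other words, GAGAGA and the E-box were less frequent than over all promoters, and ACAGTG and a run of A were more frequent. GAGAGA, the core of the element bound by GAGA factor, was in 4.84% of the 62 promoters, against 18.3% of other promoters with an IDR summit and 12.6% of all. The E-box CAGCTG was in 8.06%, against 23.6% and 17.9%. ACAGTG was in 22.6%, against 19.5% and 13.9%, and a run of 6 A, AAAAAA, in 67.7%, against 52.6% and 50.3%. A match is a description of the letters and not a bound site.

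Within 50 bp to either side of the summits themselves, a DRE was present in 13 of 62 ribosomal protein genes (21.0%) and in 2.03% of other genes, and a Motif 1 core in 8 (12.9%) and 1.04%. With summits within 50 bp of the TSS alone the shares were 18.9% and 6.07% for the DRE and 15.1% and 3.27% for Motif 1. ACAGTG showed the opposite order, with 1.89% of ribosomal protein summits and 10.7% of the others at that distance. Promoters with a DRE or a Motif 1 core beneath the summit included the following, shown because the word lies beneath the summit. The capitals again mark the DRE, the Motif 1 core and the TCT word.
RpS25 (chr3R:11216268-11216357, minus strand): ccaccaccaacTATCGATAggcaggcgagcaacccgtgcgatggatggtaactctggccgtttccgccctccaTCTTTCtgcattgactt
RpL27 (chr3R:25685032-25685121, minus strand): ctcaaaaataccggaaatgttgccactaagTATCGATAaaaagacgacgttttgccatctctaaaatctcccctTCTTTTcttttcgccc
RpLP1 (chr2L:419882-419971, plus strand): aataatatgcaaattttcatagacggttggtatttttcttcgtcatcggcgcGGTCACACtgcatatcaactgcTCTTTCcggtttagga

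RpS25 had its summit 49 bp before the TSS with a signal of 520.6 and ranks of 794, 795 and 777 in the IDR list, replicate 1 and replicate 2. RpLP1, a stalk protein that helps recruit elongation factors, had its summit 30 bp before the TSS with a signal of 392.2 and ranks of 1280, 1397 and 1218. RpL27 had its summit 23 bp before the TSS with 331.8 and ranks of 1703, 1974 and 1431. RpS25 held the steadiest place of the 3.

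Small nucleolar RNAs commonly lie in introns of ribosomal protein genes, but their place in introns was not checked here. Ribosomal protein genes with such an RNA within their bounds on the same strand had a summit in 24 of 29 cases (82.8%, Wilson 95% interval 65.5 to 92.4). Ribosomal protein genes with no such RNA had one in 38 of 63 (60.3%, 48.0 to 71.5). Among other protein-coding genes with such an RNA within their bounds the count was 17 of 55 (30.9%). By chromosome, the counts were 10 of 19 on 2L, 14 of 20 on 2R, 10 of 14 on 3L, 14 of 23 on 3R and 13 of 15 on X, and RpS3A, the only ribosomal protein gene on chromosome 4, had a summit. Of all protein-coding genes on chromosome 4, 8.75% had one, and on the other arms between 13.8% and 16.0%.

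Genes of related function were set beside them as lists. Of 7 known regulators of ribosomal protein promoters, 5 had an IDR summit (71.4%, Wilson 95% interval 35.9 to 91.8), against 14.9% of all protein-coding genes. This short list was chosen with earlier results of these data known. Dref shared the summit of RpL13, at rank 819 and 72 bp before the TSS of Dref. M1BP ranked 1946, Mnt, a repressor that pairs with Max, 2473, the insulator protein gene BEAF-32 4839, and Max, the partner of Myc, 5910. Trf2 and Myc had none in the IDR list but had a summit in both relaxed lists. The summits of M1BP, Mnt and Max lay at -285, -251 and -146 bp, farther upstream than those of most ribosomal protein genes.

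Lists for other steps of ribosome production had shares near the 14.9% of all protein-coding genes. For growth signalling the count was 1 of 8 (12.5%), which was Thor, the translation repressor 4E-BP, at rank 1524 and 34 bp after its TSS. For RNA polymerase I and nucleolar RNA modification it was 2 of 17 (11.8%), NHP2 at rank 1211 and Nopp140 at rank 4614. For ribosome assembly and export it was 2 of 13 (15.4%), namely eIF6, which keeps subunits apart, at rank 108 and the nucleostemin relative Ns2 at rank 194. None of these counts stands apart from the background.

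The genes for ribosomal proteins of the mitochondrion were set beside the cytosolic genes, without a test. An IDR summit was present in 12 of 73 (16.4%, Wilson 95% interval 9.66 to 26.6). Their median position was -149.5 bp and their mean A+T content 69.7% ± 14.4 (SD, n = 12), close to other protein-coding genes and unlike the -16.5 bp and 53.3% of the cytosolic genes. Their median rank was 726.5, stronger than the 1321.5 of the cytosolic genes, and ran from 16 to 5309. The first 4 were mRpS23, mRpL41, mRpS10 and mRpL23, with ranks of 16, 21, 40 and 138. The other 8 were mRpS2, mRpL24, mRpL20, mRpS6, mRpS26, mRpL18, mRpL39 and mRpL53, with ranks from 647 to 5309. Translation factor genes had one in 14 of 53 (26.4%, 16.4 to 39.6), with a median position of -53.0 bp and an A+T content of 58.6% ± 9.64 (SD, n = 14).

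Among them, 6 had a summit within 50 bp of the TSS, 4 of them elongation factor genes, a grouping made after their values were seen. The summit of eEF1gamma lay 16 bp before the TSS with rank 244 and 51.5% A+T. That of eEF2 lay 4 bp after it with rank 1890 and 53.5%, that of eEF1alpha1 35 bp before it with rank 1897 and 48.5%, and that of eEF5 3 bp after it with rank 2593 and 51.5%. In the list, eIF4EHP ranked 167 at -216 bp with 78.2% A+T and eIF6 at -98 bp had 58.4%, while eIF1 shared the summit of RpL28. The other two within 50 bp were eIF3m, 7 bp after the TSS with rank 3626 and 70.3% A+T, and eIF4G2, 33 bp after it with rank 4855 and 62.4%, both richer in A+T than the 4 elongation factor genes. The remaining ones were eIF3h, eIF5B, eIF2D, eRF3 and eIF4A, with ranks of 790, 2014, 3804, 3961 and 5704.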

How the data were processed

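The data are peak lists of ATbp-GFP chromatin immunoprecipitation from 2 biological replicates, 1 group. Per the labels, relaxed lists meant for IDR were made for either replicate and for the pool, and an IDR thresholded list was derived from them. Lists on dm6 were used and those on dm3 were not. The signal value of each peak is the authors' own, as deposited, and was used only to rank peaks within a list. The deposited significance column, a −log10 of the q-value by its file format, was not used for any result. How reads were aligned, peaks called and the IDR cut set is not given in the sources used here. With no read counts in the lists, depth is unknown, and Wilson intervals cover counting error only. IDR peaks carry the pooled list's signal and rank.

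Summits, 1-based, were set against Ensembl release 115 (BDGP 6.54) and the Release 6 genome with Python 3.11.15, NumPy 2.4.6, SciPy 1.17.1, matplotlib 3.10.9 and Biopython 1.88. The strongest summit within 500 bp of a TSS was kept for each gene, and a summit could count for several genes. A simulated check recovered 200 of 200 planted summits. A+T content was taken over the summit and 50 bp to either side. No test was run over the gene list. The members, lists and motifs were chosen with earlier results of these data known. Values were given in full for the 10 highest and 3 lowest ranked members, for paralogs and for members without an IDR summit, except a few members that are counted but not reported by name here; pathway genes are named when they have an IDR summit. Alternatives changed the promoter half-width, TSS choice, A+T window, list depth and replicates used.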

Additional observations from a re-analysis of the deposited data

How the results depend on the processing

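The count of 62 genes with an IDR promoter summit moved between 61 and 65 with a half-width of 250 or 1000 bp, the canonical TSS alone, a summit counted for the nearest gene alone, or 1 replicate at a time. The share of all protein-coding genes was 11.0% with 250 bp, 18.7% with 1000 bp and 12.3% with the canonical TSS alone. With 1 replicate at a time it was 14.9% or 15.4%, and for the nearest gene alone it is not given. The count was 51 with the 2960 strongest IDR summits, where 8.75% of all protein-coding genes had one. Leaving out names ending in -like gave 62 of 88 (70.5%), and counting each paralog family once gave 61 of 79 (77.2%), both chosen after seeing the data. The median position ranged from -11.0 to -25.5 bp, and the median rank stayed at 1321.5 in the 4 alternatives run for it. Mean A+T content at the summits, 53.3%, was 51.6% in 51 bp windows, 56.7% within 100 bp to either side, 52.3% with the 2960 strongest summits and 52.7% around the canonical TSS, and leaving out each replicate in turn gave 53.8% to 53.9%. Other genes had 65.7%, 65.4% and 63.8% in the narrow, reported and wide window. No paired analysis was possible because the 2 replicates form 1 group and no result comes from a test. With depth unknown, a gene missing from a list of 30000 peaks cannot be said to lack ATbp.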
